A study of Mus musculus with 33 samples.

Results

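*Txndc12*, *Blzf1* and *Itgb4* are 3 genes out of 35321 counted in single germinal vesicle oocytes, and they were chosen by their lower counts in *Nlrp5* -/- than in *Nlrp5* +/+ oocytes with a non-surrounded nucleolus (NSN) profile, and by a small influence of RNA from somatic cells. That comparison chose the genes, so its values are given below as a description. What the choice did not use are the oocytes with a surrounded nucleolus (SN) profile, the heterozygous oocytes, and the way the counts vary from oocyte to oocyte. The counts came from 10 *Nlrp5* +/+, 16 *Nlrp5* +/- and 7 *Nlrp5* -/- oocytes of mice aged 3 weeks on the C57BL6/Babr background. The mutant allele is a small frameshift deletion made with CRISPR/Cas9 in zygotes, carried on 1 chromosome in +/- and on both in -/- females, and it is present from conception in every tissue. By the methods, the -/- and +/- mice shared litters, while most +/+ mice were taken from the founding stock. All oocytes were freed from the ovary by the same digestion, and RNA and DNA of each cell were parted before the RNA was amplified and sequenced.

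NALP5, the protein of *Nlrp5*, is a core part of the subcortical maternal complex, an assembly of abundant oocyte proteins that is needed for the first cleavages of the embryo. Nearly all oocyte mRNA is made while the oocyte grows. Transcription is active in NSN oocytes and largely silent in SN oocytes, so the mRNA of an SN oocyte is mostly stored. *Txndc12* encodes a small thioredoxin-fold protein of the endoplasmic reticulum that acts on disulfide bonds. *Blzf1* encodes a golgin, a coiled-coil protein of the Golgi membrane that works with the Golgi stacking protein encoded by *Gorasp2*. *Itgb4* encodes the integrin beta 4 subunit, which pairs with the alpha 6 subunit encoded by *Itga6* and binds laminin in the hemidesmosomes of epithelia.

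The labels give the genotype of each oocyte and no stage, so each oocyte was called NSN-like or SN-like from a staging score. The score is the mean log2 normalized count of 105 genes known to be higher in NSN oocytes minus that of 59 genes higher in SN oocytes, and none of the 3 genes is among them. Splitting the 33 scores into 2 clusters left a gap of 0.236 between the clusters, and 9 oocytes lay within 0.5 of its middle, so the profiles are the ends of a range rather than separate types. NSN-like were 4 +/+, 10 +/- and 4 -/- oocytes, and SN-like were 6 +/+, 6 +/- and 2 -/- oocytes. A further -/- oocyte, number 15, was left without a stage by the study. It scored as NSN-like and is described on its own. The labels name no mouse, so the oocytes of 1 genotype and profile count as 1 sample, no test was possible between genotypes, and each SD below is the spread between cells. Each first index sequence of the libraries occurs with 1 genotype only, and a difference in preparation cannot be told apart from genotype. The depth was 4223595 to 15573360 counts per oocyte. The targeted gene followed the labels. Normalized counts of *Nlrp5* ran from 10114 to 29131 with a median of 11807 in +/+, from 5062 to 13472 with a median of 7978 in +/-, and from 1362 to 2556 with a median of 2105 in -/- oocytes. The -/- oocytes were below all others, and +/- overlapped with +/+.

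The stretches of 250 bases before the RefSeq transcription starts of *Txndc12* and *Blzf1* are shown to give the sequence around the starts of 2 of the 3 genes, and none is shown for *Itgb4*. They are the reference sequence of RefSeq, build GRCm38.p6, printed 5′ to 3′ on the strand of the gene. The capitals mark the letters ACTTCC, which read GGAAGT on the other strand and are the core of the motif bound by ETS family factors. For *Blzf1*, which has 2 start sites in that table, 1 window is shown.
Txndc12, plus strand, chr4:108834428-108834677: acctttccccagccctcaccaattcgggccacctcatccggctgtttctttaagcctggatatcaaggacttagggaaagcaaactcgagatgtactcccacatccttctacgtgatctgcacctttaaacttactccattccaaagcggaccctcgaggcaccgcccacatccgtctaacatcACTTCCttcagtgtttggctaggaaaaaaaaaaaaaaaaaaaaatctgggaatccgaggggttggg
Blzf1, minus strand, chr1:164307488-164307737: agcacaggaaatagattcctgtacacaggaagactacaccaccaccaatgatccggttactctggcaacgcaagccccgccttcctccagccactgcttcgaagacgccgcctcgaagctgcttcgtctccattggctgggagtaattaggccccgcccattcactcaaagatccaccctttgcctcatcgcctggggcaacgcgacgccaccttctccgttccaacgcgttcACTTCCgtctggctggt

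ACTTCC, searched on both strands, occurs once in each window, 66 bases before the RefSeq start of *Txndc12* and 17 bases before that of *Blzf1*. It is found in 19.8% of 32536 windows of the same length before mouse genes. The span of *Txndc12* used for the counts starts at 108834601, inside its window, so the match there lies within that span. CCAAT occurs once before *Txndc12* and 2 times before *Blzf1*, against a share of 33.8% of all windows with a match. GGGCGG, the letters bound by Sp1, occurs once in each and in 32.97% of all windows. CANNTG, the E-box, has no match in either window and is found in 66.2% of all windows. These matches are a description of the letters, and no binding was measured.

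In +/+ oocytes, *Txndc12* was higher in the NSN-like profile. Normalized counts in the 4 NSN-like oocytes were 216 in oocyte 70, 266 in oocyte 87, 296 in oocyte 78 and 359 in oocyte 79, and the 6 SN-like oocytes ran from 84.2 to 178 with a median of 149. The 2 profiles did not overlap. The means were 284 ± 59.8 (SD, n = 4) and 142 ± 35.0 (SD, n = 6), a difference of 0.99 on the log2 scale. Over all genes with a mean of 10 or more normalized counts, 6.07% had every NSN-like oocyte above every SN-like one in +/+.

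*Txndc12* fell in -/- oocytes of either profile. The NSN-like -/- oocytes held 31.4 (oocyte 13), 41.0 (oocyte 29), 55.4 (oocyte 30) and 90.8 (oocyte 14) normalized counts, each below the lowest +/+ oocyte of that profile, as were those of 3.14% of all genes. Their mean of 54.6 ± 26.0 (SD, n = 4) was 5.12-fold under the +/+ mean, a log2 fold change of −2.36. The 2 SN-like -/- oocytes held 40.5 (oocyte 7) and 64.4 (oocyte 31), below the lowest +/+ oocyte at 84.2, with a log2 fold change of −1.42. In that profile 7.85% of all genes had no overlap in that direction. The -/- levels of the 2 profiles lay side by side, with means of 54.6 and 52.4.

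*Blzf1* moved the other way between the profiles in +/+ oocytes. The 4 NSN-like oocytes held 351 (oocyte 87), 380 (oocyte 78), 421 (oocyte 70) and 439 (oocyte 79) normalized counts, and the 6 SN-like oocytes ran from 451 to 669 with a median of 519. Every SN-like oocyte was above every NSN-like one, by a mean difference of 0.42 on the log2 scale, and 3.73% of genes had oocytes that did not overlap in that direction. The spread was small, with means of 398 ± 39.5 (SD, n = 4) and 532 ± 74.9 (SD, n = 6).

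In -/- oocytes *Blzf1* fell to about the same share of the +/+ level in both profiles. The NSN-like oocytes held 52.8 (oocyte 30), 59.6 (oocyte 14), 97.9 (oocyte 29) and 186 (oocyte 13), and the SN-like oocytes held 111 (oocyte 7) and 147 (oocyte 31). No -/- oocyte reached the lowest +/+ oocyte of its profile. That held for 3.14% of all genes in the NSN-like profile, by which the gene was chosen, and for 7.85% in the SN-like profile. The means were 24.9% of the +/+ mean in NSN-like and 24.2% in SN-like oocytes, or log2 fold changes of −1.99 and −2.04.

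*Itgb4* was the least abundant of the 3 in counts and the most uneven between oocytes. Normalized counts in NSN-like +/+ oocytes were 65.2 (oocyte 79), 133 (oocyte 87), 165 (oocyte 70) and 206 (oocyte 78), and in the 6 SN-like ones 15.2 to 82.1 with a median of 39.9. The profiles overlapped through oocytes 79 and 69. The means of 142 ± 59.6 (SD, n = 4) and 42.5 ± 22.6 (SD, n = 6) differed by 1.72 on the log2 scale, where 8.82% of all genes were at least 2-fold higher in NSN-like oocytes.

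Very few reads of *Itgb4* were left in -/- oocytes. The raw counts were 2 in oocyte 13, 7 in oocyte 30, 11 in oocyte 29 and 33 in oocyte 14 among NSN-like oocytes, or 3.69 to 22.9 normalized counts, all below the lowest +/+ oocyte. By that profile the gene was chosen, and 3.14% of all genes had no overlap in that direction there. In the SN-like profile oocyte 7 had 6 reads and oocyte 31 had none, which at its depth allows up to 2.17 normalized counts. Summed over oocytes, the level was 12.8 (95% Poisson interval 9.60 to 16.8) against 140 (129 to 150) in +/+ NSN-like oocytes. In SN-like oocytes it was 2.83 (1.04 to 6.15) against 43.5 (39.1 to 48.1). These intervals cover counting error only, because the reads were amplified and carry no molecular identifiers. The log2 fold changes of the means, with a pseudocount of 1, were −3.45 and −3.11, and at such low counts they depend on the pseudocount and on oocyte 7. Without oocyte 7 the SN-like value rested on the oocyte with no reads and was −5.44.

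**Figure D1:**
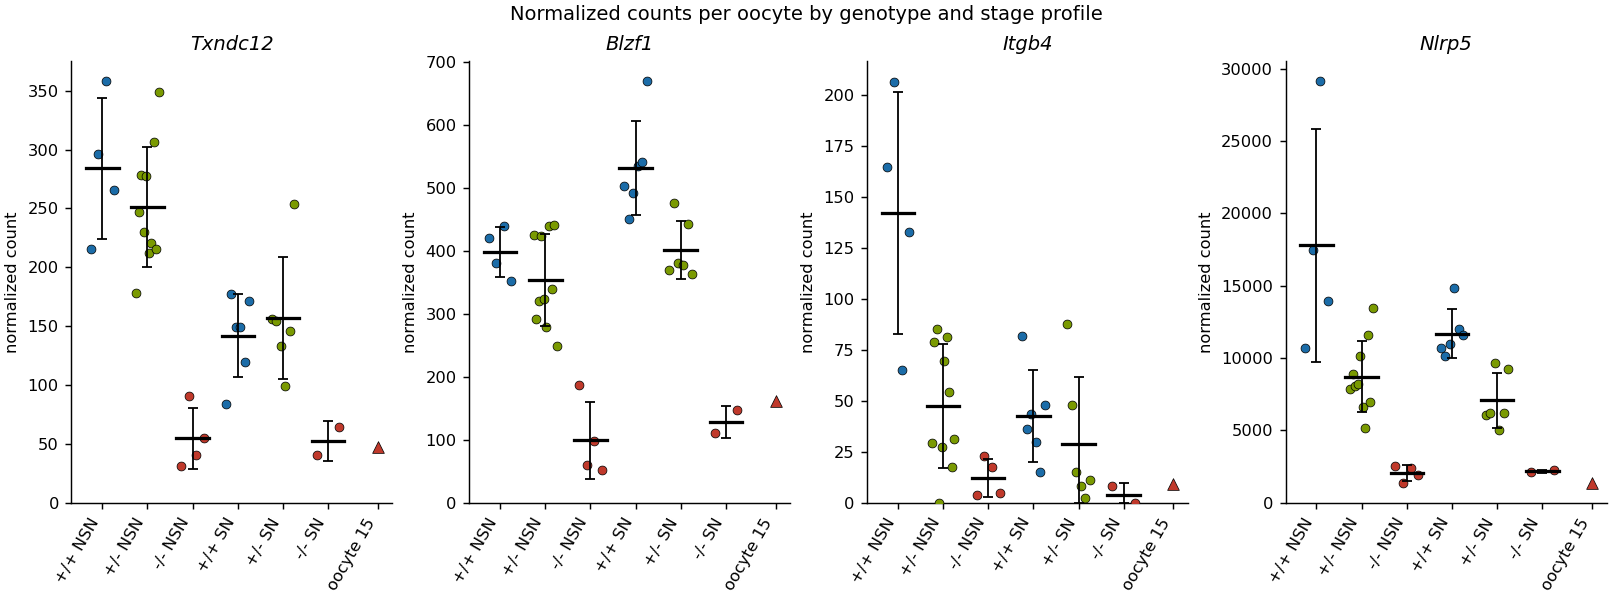
Normalized count (vertical axes, starting at 0) of *Txndc12*, *Blzf1*, *Itgb4* and *Nlrp5* in each oocyte (points) by genotype and NSN-like or SN-like profile, with the mean (thick line) and SD over oocytes (bars, ending at 0 where they would pass it). The triangle is oocyte 15. The -/- points lie below all +/+ points of the same profile in each panel, whereas the +/- points of *Txndc12* spread over the +/+ range and those of *Itgb4* reach from the +/+ to the -/- range.

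The place of the 3 among all genes was taken next. Among 13833 genes measured in NSN-like oocytes, 3.21% were at least 2-fold lower in -/- than in +/+. The 3 genes met this, and the lack of overlap, by the way they were chosen. Among 13351 genes measured in SN-like oocytes, which took no part in the choice, 5.99% were at least 2-fold lower. In the SN-like profile too, 3 of the 3 were at least 2-fold lower without overlap. A log2 fold change as low or lower was found for 2.71% of genes in the case of *Txndc12*, 0.96% for *Blzf1* and 0.28% for *Itgb4*. *Itgb4*, with means of 4.05 in -/- and 42.5 in +/+, passed the filter on low counts through the +/+ oocytes alone, so its place among all genes is a description. With 2 -/- oocytes of that profile, gaps between single cells are common, which the share of 7.85% shows. *Nlrp5* itself stood at 11.6% of the +/+ mean in NSN-like and 18.7% in SN-like -/- oocytes, so its transcript was reduced and not absent.

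**Figure D2:**
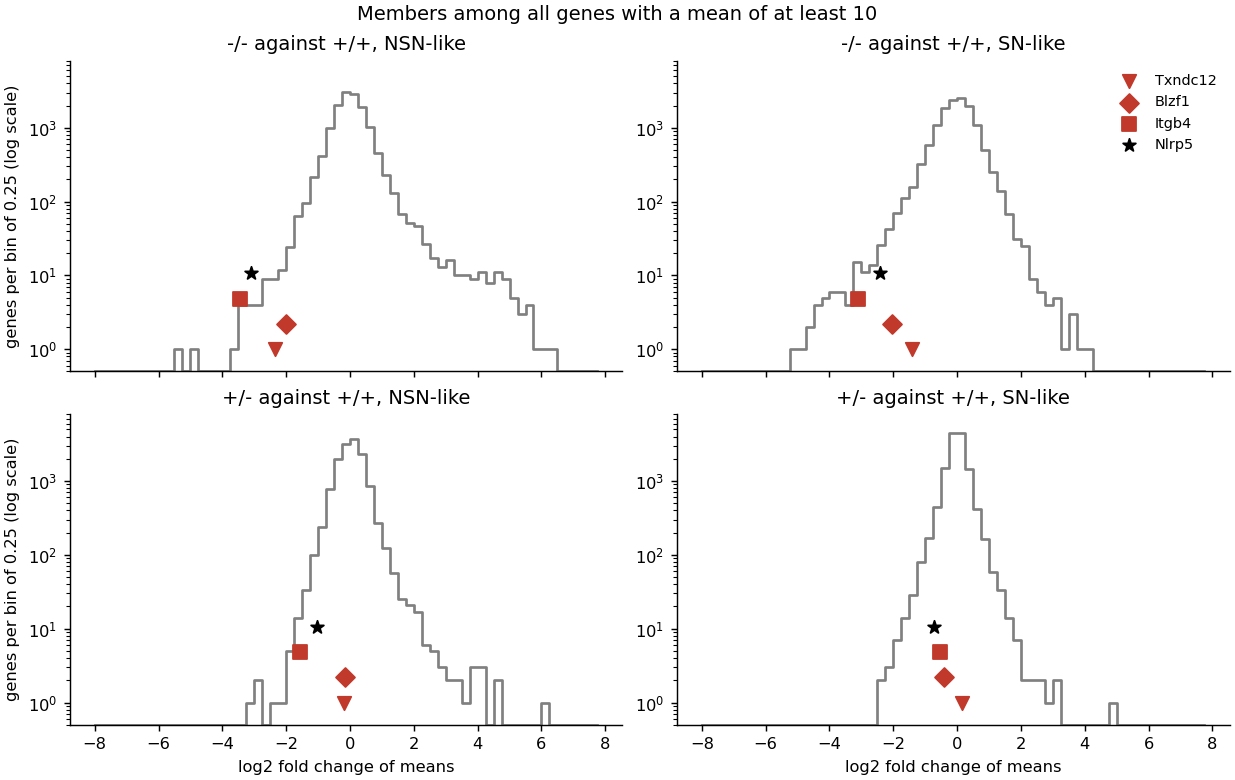
Histograms of the log2 fold change of means (horizontal axis) over all genes with a mean of 10 or more normalized counts, as genes per bin of 0.25 on a log axis, for -/- against +/+ (top) and +/- against +/+ (bottom) in each profile. Red markers give *Txndc12*, *Blzf1* and *Itgb4* and the star *Nlrp5*, at heights that carry no value. The 3 genes sit between −3.45 and −1.42 in the top panels, and in the bottom panels *Txndc12* lies near 0.

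Whether a single mutant allele lowered the 3 genes in a graded manner was asked next. *Nlrp5* fell to 48.9% of the +/+ mean in NSN-like +/- oocytes and to 60.7% in SN-like ones. *Txndc12* stayed at 88.5% and 111%, *Blzf1* at 88.8% and 75.5%, and *Itgb4* at 33.4% and 67.7%. These comparisons use the same +/+ oocytes as those of -/-, and in the NSN-like profile the +/+ oocytes helped to choose the genes, so a lower value in NSN-like +/- oocytes is not independent of the choice. The comparisons of -/- with +/- given below use the NSN-like -/- oocytes by which the genes were chosen, so in that profile their fold changes and their lack of overlap are a description, and nothing is read from them against the shares of all genes.

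*Txndc12* in +/- oocytes lay near the +/+ level. The 10 NSN-like +/- oocytes ran from 178 to 349 normalized counts with a median of 239, of which 7 were at or above the lowest +/+ oocyte and 3 lay between the +/+ and the -/- range. The 6 SN-like +/- oocytes ran from 99.4 to 253 with a median of 150, and 6 of 6 were at or above the lowest +/+ oocyte. The log2 fold changes against +/+ were −0.18 and 0.14. Within the NSN-like profile the value stayed below 0 under every alternative setting, between −0.29 and −0.04, and in the SN-like profile it was −0.04 without oocyte 55. Against the littermate +/- oocytes, -/- oocytes had log2 fold changes of −2.18 and −1.57 with no overlap in either profile. In the SN-like profile, which took no part in the choice, 6.46% of all genes had no overlap in that direction, and in the NSN-like profile 0.586% did.

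*Blzf1* in +/- oocytes was a little below +/+ in SN-like oocytes and hardly so in NSN-like ones. The NSN-like +/- oocytes ran from 249 to 442 with a median of 331, and 6 of 10 lay between the highest -/- and the lowest +/+ oocyte. The SN-like +/- oocytes ran from 363 to 476 with a median of 379, and 5 of 6 lay in that gap, with the remaining one, oocyte 38 at 476, above the lowest +/+ oocyte at 451. Over all genes 0.128% had no overlap in that direction, which *Blzf1* did not meet. The log2 fold changes of −0.17 and −0.40 were smaller than the 2-fold that 1.14% and 1.02% of genes passed in these 2 comparisons. The value of −0.40 was as low or lower for 8.70% of genes. Against +/-, the -/- oocytes had log2 fold changes of −1.82 and −1.63, again without overlap.

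By group means *Itgb4* was the gene with the lowest +/- level relative to +/+, but in the SN-like profile this order depended on single oocytes. In NSN-like +/- oocytes it ran from 0 in oocyte 53 to 85.3 in oocyte 48 with a median of 42.9. None of the 10 reached the +/+ median of 149, 4 were at or above the lowest +/+ oocyte and 4 lay in the gap between the genotypes. Of the other two, oocyte 63 at 17.8 was within the -/- range and oocyte 53 had no reads, which at its depth allows up to 4.08 normalized counts. The log2 fold change of −1.56 was as low or lower for 0.15% of genes, and 0.219% of genes had no overlap in that direction, which *Itgb4* did not meet. The +/+ oocytes in that comparison helped to choose the gene, so its place among all genes there is a description. In SN-like +/- oocytes the values ran from 2.29 in oocyte 47 to 87.9 in oocyte 37, the highest of either genotype in that profile, with a median of 13.03. The log2 fold change there was −0.55, as low or lower for 4.70% of genes, and became −1.54, past 2-fold, with medians in place of means. It was −1.28 without oocyte 37, −0.26 without the +/+ oocyte 69 and −0.22 with oocyte 61 counted as SN-like. The log2 fold change of -/- against +/- was −1.89 in the NSN-like and −2.56 in the SN-like profile, with overlap in both. At least 2-fold lower in these 2 comparisons were 3.09% and 5.65% of all genes. In the SN-like profile, with means of 4.05 in -/- and 28.8 in +/-, *Itgb4* passed the filter on low counts through the +/- oocytes alone. Nothing is therefore read from it against that share.

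**Figure D3:**
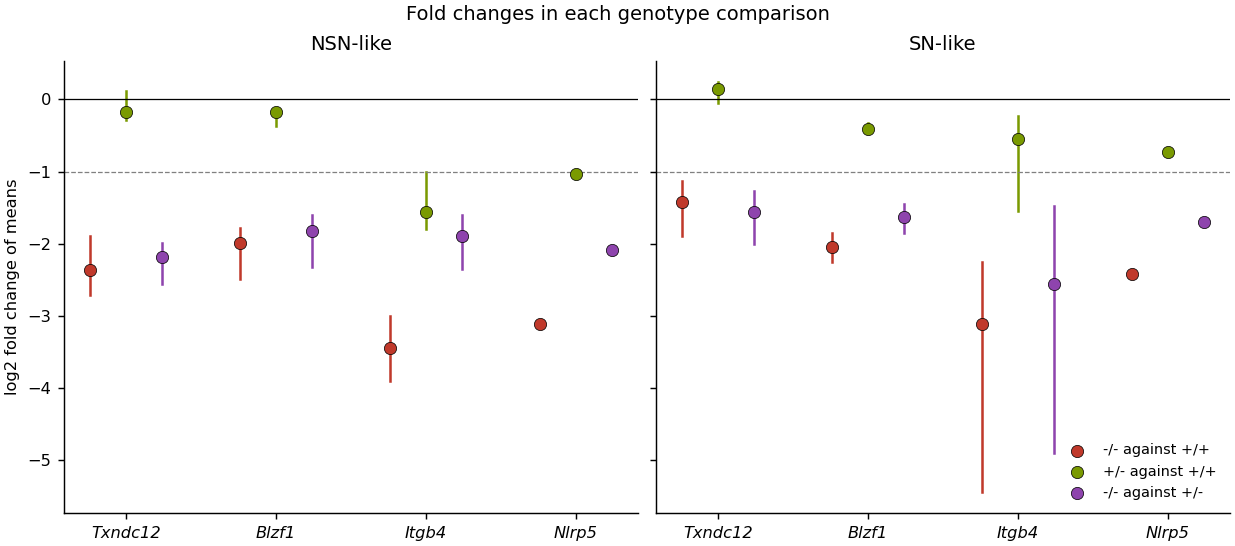
Log2 fold change of the means (vertical axis) of *Txndc12*, *Blzf1*, *Itgb4* and *Nlrp5* for -/- against +/+, +/- against +/+ and -/- against +/- in NSN-like (left) and SN-like (right) oocytes. Vertical lines, for the 3 genes, span the values under all alternative settings, oocytes left out in turn included, and the dashed line marks a 2-fold fall. The +/- values of *Txndc12* and *Blzf1* lie between −0.40 and 0.14, and the widest spans are those of *Itgb4* in SN-like oocytes, reaching −5.44.

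The variation of the 3 transcripts with that of *Nlrp5* among oocytes of 1 genotype was described next. Correlations were taken within each genotype on log2(normalized count + 1) as a description, since the points share a genotype and possibly a mouse. *Txndc12* varied with *Nlrp5* in +/- oocytes, with Pearson's r = 0.69 and Spearman's rho = 0.69 over 16 oocytes, and r was 0.49 without oocytes 46 and 64. Within +/- profiles r was 0.77 over the 10 NSN-like oocytes, and it was 0.61 over the 6 SN-like ones, where rho was 0.20. In +/+ oocytes r was 0.70 over 10 oocytes and 0.25 without oocytes 78 and 79, and it was 0.07 within the 6 SN-like ones. In the 7 -/- oocytes, oocyte 15 among them, r was −0.63, and 22.0% of all genes had an r that low or lower there.

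*Blzf1* and *Itgb4* gave no positive relation with *Nlrp5* over the 16 +/- oocytes. For *Blzf1* r was −0.58 over the 16 +/- oocytes, −0.30 over the 10 +/+ oocytes and 0.34 over the 7 -/- oocytes, and within SN-like +/+ oocytes it was 0.37. For *Itgb4* r was 0.02 in +/-, 0.18 in +/+ and −0.46 in -/- oocytes. In +/- oocytes, 0.999% of all genes had an r with *Nlrp5* at least as high as *Txndc12*, whereas 97.8% had one at least as high as *Blzf1*.

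**Figure D4:**
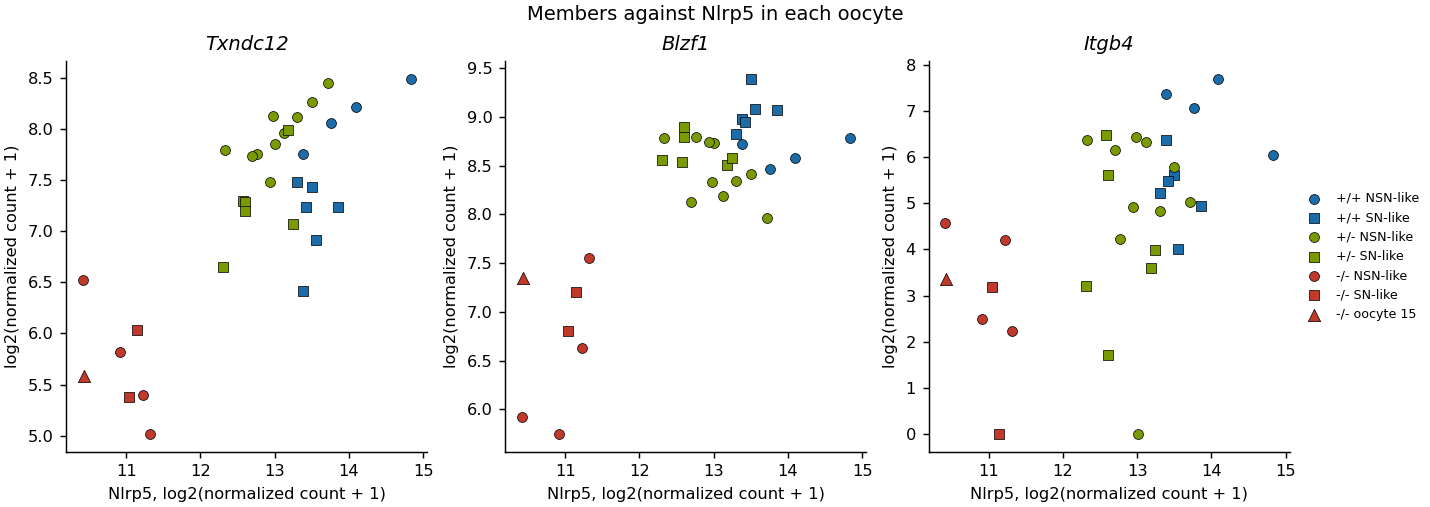
Log2(normalized count + 1) of *Txndc12*, *Blzf1* and *Itgb4* (vertical axes) against that of *Nlrp5* (horizontal axis) in each of the 33 oocytes, coloured by genotype, with circles for NSN-like, squares for SN-like and a triangle for oocyte 15. The -/- oocytes form a separate group at low *Nlrp5*, and among the green +/- points *Txndc12* rises with *Nlrp5* (r = 0.69) while *Blzf1* declines (r = −0.58).

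The counts also varied with the staging score. *Txndc12* rose with the score, towards the NSN end, with r = 0.90 in +/+ and 0.82 in +/- oocytes, and *Blzf1* declined with it, with r = −0.79 and −0.56. *Itgb4* rose with it with r = 0.73 in +/+ and 0.28 in +/- oocytes. *Nlrp5* rose with it as well, with r = 0.51 and 0.55. Within the 10 NSN-like +/- oocytes the r of *Txndc12* with the score was 0.52, falling to 0.05 without oocytes 39 and 61, where the r with *Nlrp5* was 0.77 and 0.75 without the 2 oocytes farthest from the median of *Nlrp5*. How far stage, *Nlrp5* and depth each bear on *Txndc12* was not tested. The profiles were not matched in score between genotypes, with −4.21 to −3.85 in SN-like -/- against −5.27 to −4.07 in SN-like +/+ oocytes. In the NSN-like profile the scores were −3.13 to −1.99 in -/- and −3.23 to −2.86 in +/+ oocytes. How far this bears on the fold changes of the members was not tested. In the 7 -/- oocytes r with the score was −0.51 for *Blzf1* and 0.52 for *Itgb4*, and for *Txndc12* it was 0.46 but −0.43 without oocytes 7 and 14. The r of *Txndc12* with the log2 total count was 0.82 in -/-, −0.41 in +/+ and −0.16 in +/- oocytes.

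**Figure D5:**
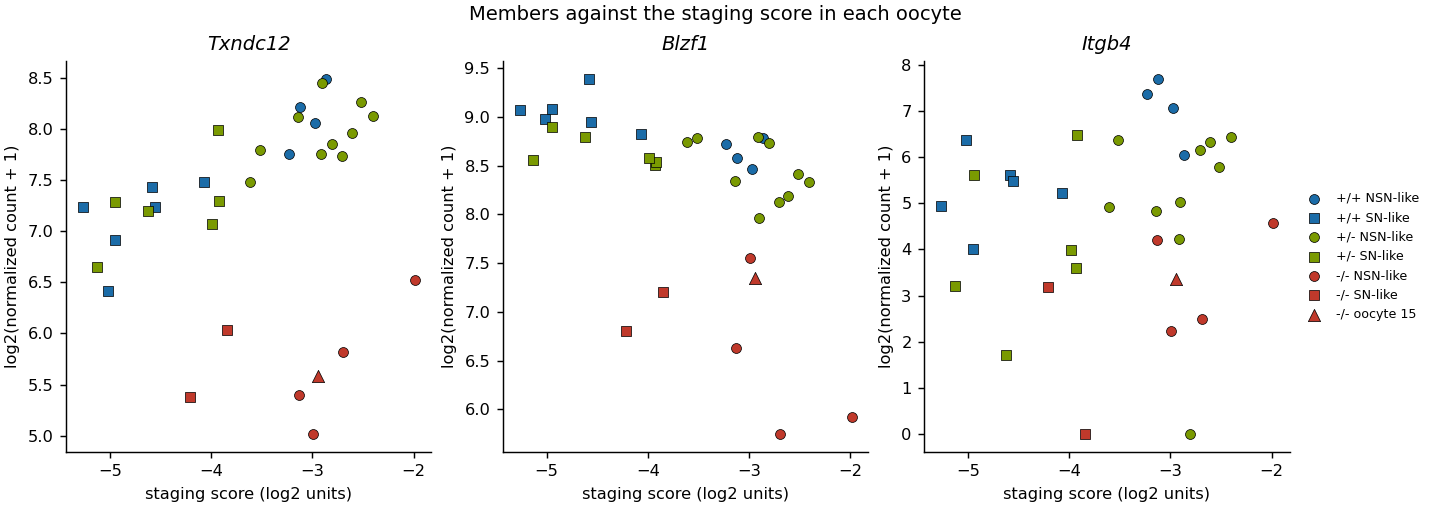
Log2(normalized count + 1) of *Txndc12*, *Blzf1* and *Itgb4* (vertical axes) against the staging score (horizontal axis, in log2 units, higher towards the NSN end) in each oocyte, with colours and shapes for genotype and profile. The blue +/+ points of *Txndc12* rise with the score (r = 0.90) and those of *Blzf1* decline (r = −0.79). The red -/- points, from −4.21 to −1.99 on the score against −5.27 to −2.86 in +/+, lie below the +/+ points of the same profile.

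The 3 genes did not all vary together from oocyte to oocyte. In +/+ oocytes r was −0.60 between *Txndc12* and *Blzf1*, 0.52 between *Txndc12* and *Itgb4*, and −0.68 between *Blzf1* and *Itgb4*. In +/- oocytes these were −0.55, 0.26 and −0.39, and in -/- oocytes −0.60, 0.06 and −0.43. Within 1 profile, r between *Txndc12* and *Blzf1* was −0.65 over the 10 NSN-like +/- oocytes, but −0.13 over the 6 SN-like +/- and 0.16 over the 6 SN-like +/+ oocytes.

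The genes whose counts were most like each of the 3 over all 33 oocytes were ranked by Pearson's r among 10150 genes (10151 for *Itgb4*) with a mean of at least 50. Because the genotypes are pooled here, a high r can come from a shared fall in -/- alone. The -/- and +/+ values that chose the members enter it too, so a likeness to the mutated gene *Nlrp5* is built in, and r within genotype and profile is given beside it. For *Txndc12* the 5 highest were *Gm42437* (0.86, and 0.66 within), *Zfp141* (0.82 and 0.28), *Ppp2r2b* (0.81 and 0.52), *Nlrp5* (0.81 and 0.28) and *Tfb1m* (0.81 and 0.61). *Tfb1m* encodes a methyltransferase of mitochondrial ribosomal RNA, and *Zfp141* a zinc finger protein. Log2 fold changes of *Zfp141* in -/- against +/+ were −2.65 in NSN-like and −2.03 in SN-like oocytes.

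For *Blzf1* the 5 highest were *Spata6* (0.84, and 0.37 within), *Nlrp5* (0.81 and −0.04), *Thegl* (0.79 and 0.14), *Adprm* (0.78 and −0.03) and *Mrps31* (0.77 and 0.22), the last of them a mitochondrial ribosomal protein gene. For *Itgb4* the highest were lower, with *Gm49448* (0.68 and 0.46), *Gm29811* (0.62 and 0.41), *Supt7l* (0.62 and 0.67), *Dync1i1* (0.61 and 0.48) and *Med20* (0.59 and 0.54), and *Nlrp5* ranked 21. *Dync1i1*, a dynein intermediate chain gene, had log2 fold changes of −3.06 and −2.37 in -/- against +/+ in the 2 profiles. *Supt7l* and *Med20* encode parts of general transcription coactivators.

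The 3 genes lie on different chromosomes, and *Nlrp5* lies on none of these, from 23385889 to 23441922 on the plus strand of chromosome 7 in GRCm38. *Txndc12* (ENSMUSG00000028567) spans 108834601 to 108862127 on the plus strand of chromosome 4 and holds *Kti12*, 1629 bases on the same strand, inside it. *Kti12* was higher in NSN-like -/- oocytes by 1.15 on the log2 scale, opposite to *Txndc12*, and by 0.01 in SN-like ones. The neighbours *Btf3l4*, 986 bases below, and *Rab3b* above had log2 fold changes of −0.16 and 0.05 in the NSN-like profile and of −0.55 and 0.01, both with overlap, in the SN-like profile. *Blzf1* (ENSMUSG00000026577) spans 164289800 to 164307489 on the minus strand of chromosome 1, and its start overlaps *Nme7* on the other strand by 3369 bases. *Nme7* had means of 134 in +/+ and 76.8 in -/- NSN-like oocytes, a log2 fold change of −0.79 without overlap, and one of −0.45 with overlap in SN-like oocytes. *Ccdc181*, on the other side of *Blzf1*, changed by −0.28 with overlap in the NSN-like and by −0.62 without overlap in the SN-like profile. Of all genes, 3.14% in the NSN-like and 7.85% in the SN-like profile were lower in -/- without overlap. How reads in the overlaps were assigned by strand is not given in the sources used here, so *Txndc12* with *Kti12* and *Blzf1* with *Nme7* may share reads.

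*Itgb4* (ENSMUSG00000020758) spans 115974709 to 116008412 on the plus strand of chromosome 11, with 44 bases between its end and the end of *Galk1* on the minus strand. *Galk1* was higher in -/- oocytes by 0.93 in the NSN-like and 0.84 in the SN-like profile, while *Sap30bp* on the other side changed by 0.04 and 0.05. Of the measured neighbours of the 3 genes, none was at least 2-fold lower in -/- than in +/+ oocytes in either profile. Of all genes, 3.21% in the NSN-like and 5.99% in the SN-like profile were, so nothing is read from so few neighbours.

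Genes of the pathways around the 3 members were counted against the shares of all genes. Of 28 measured genes of endoplasmic reticulum disulfide chemistry, 0 were at least 2-fold lower and 1 was higher in NSN-like -/- oocytes, where 3.21% of all genes were lower and 4.93% higher, with a list median of −0.02. The higher one was *Gpx7*, a peroxidase of that compartment, which passed the filter through the -/- oocytes, with means of 30.6 normalized counts in -/- (0.66 to 99.8) and 4.16 in +/+. The most abundant members, *Txndc5* (0.50), *P4hb* (−0.17), *Calr* (−0.40) and *Hspa5* (0.14), stayed within 2-fold. In the SN-like profile 0 of 26 were lower and 4 were higher, *Tmx1*, *Tmx2*, *Tmx4* and *Prdx4*, by 1.09 to 2.29, where 5.99% of all genes were lower and 4.07% higher. The transmembrane thioredoxins among them had means of 5.70 to 20.9 in SN-like +/+ oocytes. Of 17 measured thioredoxin genes of cytosol and nucleus 0 changed by 2-fold in NSN-like, and of 15 measured 0 did in SN-like -/- oocytes.

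Of 39 measured golgins and Golgi tethering genes, 1 was lower and 1 higher in NSN-like -/- oocytes, near the shares of 3.21% and 4.93% over all genes. *Gcc2*, a golgin of the trans-Golgi, had a log2 fold change of −1.01 and *Rab30*, a Golgi GTPase, one of 1.36, and the list median was 0.05. *Gorasp2*, the stacking partner of the *Blzf1* protein, had log2 fold changes of 0.06 and −0.10 in the 2 profiles, and *Golga2*, another golgin, 0.13 and 0.38. In SN-like oocytes 0 of 38 were lower and *Golga1* and *Cog2* were higher, by 1.06 and 1.45, against 5.99% and 4.07% of all genes.

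Among 12 measured integrin subunits other than *Itgb4*, 1 was lower and 2 were higher in NSN-like -/- oocytes, and of all genes 3.21% and 4.93%. *Itga6*, whose product pairs with integrin beta 4, was abundant and changed by −0.45 and −0.22 in the 2 profiles, and *Itgb1*, its other partner, by −0.26 and −0.30. The log2 fold change was −2.07 for *Itga4*, 1.92 for *Itga5* and 1.28 for *Itgb2*, with group means under 50 normalized counts in all 3. In SN-like oocytes it was −1.25 for *Itgae* and 1.14 for *Itga5*, the subunits past 2-fold of 13 measured, with 5.99% of all genes lower and 4.07% higher. Of 14 measured hemidesmosome and laminin genes, *Lamc1* (−1.07) was lower and the tetraspanin gene *Cd81* (1.44) higher in NSN-like oocytes, and of 13 measured in SN-like oocytes *Cd81*, with a +/+ mean of 7.43, and *Lamb2* were higher by 2.23 and 1.09. *Col17a1*, a defining gene of hemidesmosomes, had no reads in 27 of 33 oocytes, and *Plec*, the plectin gene, had a mean of 35.9.

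Of 25 measured markers of other ovarian cells, 16 were at least 2-fold higher in NSN-like -/- than in +/+ oocytes, and of 21 measured in SN-like oocytes 11 were, against 4.93% and 4.07% of all genes. In NSN-like -/- oocytes, 6 of 11 measured granulosa cell markers, 2 of 4 theca and interstitial markers, 2 of 3 surface epithelium markers and 6 of 7 markers of stroma, vessels and blood were higher, and 0 of any of these lists were lower. Of the 16 higher markers 11 had a +/+ mean under 10 normalized counts, *Inha* with 5.18 against 377 in -/- among them, and passed the filter through the -/- oocytes. In SN-like -/- oocytes these were 4 of 9, 2 of 3, 2 of 3 and 3 of 6, with *Kdr* lower, and 7 of the 11 higher markers had a +/+ mean under 10. In +/- against +/+, where the log2 fold change of *Itgb4* was −1.56 in NSN-like oocytes and *Txndc12* and *Blzf1* stayed within 2-fold, 2 of 7, 3 of 5, 1 of 3 and 3 of 5 were higher in NSN-like oocytes (1.98% of all genes) and 1 of 7, 3 of 4, 1 of 3 and 4 of 9 in SN-like ones (0.926%), with *Ptch1* lower in the former. Of these 9 and 9 higher markers, 7 and 6 had a +/+ mean under 10, so none of these counts is read as a share of the lists. In -/- against +/-, 5 of 11, 1 of 6, 1 of 3 and 1 of 6 were higher in NSN-like oocytes (3.03% of all genes), and *Gatm* and *Cyp17a1* were lower. In SN-like oocytes 4 of 9, 0 of 6, 2 of 3 and 0 of 7 were higher (3.58%), and the theca markers *Cyp17a1* and *Star* were lower. Summed granulosa markers took 287 to 672 CPM (counts scaled to the total of the library) in NSN-like -/- and 279 to 475 in +/+ oocytes, most of them from *Serpine2*, *Cyp19a1* and *Nr5a2*, which had reads in every oocyte, and *Serpine2* had log2 fold changes of −0.39 and −0.26 in the 2 profiles. *Inhbb*, *Amh*, *Foxl2* and *Fst* were at 0 in the 4 NSN-like +/+ oocytes. Summed theca markers reached 239 in the -/- oocyte 14 and 318 in the +/- oocyte 61 against at most 23.0 in +/+. Without oocyte 14 the NSN-like log2 fold changes of -/- against +/+ were −2.71 for *Txndc12*, −1.81 for *Blzf1* and −3.91 for *Itgb4*, a description only, since the genes were also chosen for a small influence of somatic RNA. The part of somatic RNA in the values of the 3 genes was not tested. Of 12 oocyte markers, led by *Gdf9*, *Zp2* and *Bmp15*, 0 changed by 2-fold in either profile.

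Oocyte 15 had the highest somatic sums of all, 1316 CPM for granulosa and 669 CPM for theca markers, and 506 genes were at least 8-fold above the other -/- oocytes with at least 100 normalized counts. It held 47.1 normalized counts of *Txndc12*, 161 of *Blzf1* and 9.25 of *Itgb4*, each within the range of the other -/- oocytes. Placed in the NSN-like group by its own score, it changed the log2 fold changes against +/+ to −2.40, −1.82 and −3.51.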

How the data were processed

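Per the methods, reads were trimmed by Trim Galore and mapped by HISAT2, shallow libraries were dropped, and the authors deposited raw read counts per gene, 1 column for each oocyte. The methods name GRCm39, whereas the table carries GRCm38 coordinates, printed here as they stand. Of 35373 entries, 52 repeats were left out. The authors' tables of called genes, with fold changes and adjusted p-values, were not used.

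Counts were divided by size factors (median of ratios, 11845 genes). Fold changes are log2 ratios of mean normalized counts plus a pseudocount of 1, which understates changes of low genes. A gene was measured at a mean of at least 10, and called at 2-fold or where oocytes did not overlap. Profiles came from a 2-means split.

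The members, gene lists and rules were chosen with earlier results of these data known. Named were the members, *Nlrp5*, overlapping and nearest genes, list genes past 2-fold in -/- or else up to 4 of the most abundant, and the 5 genes most like each member. *Gorasp2*, *Golga2*, *Plec*, *Col17a1*, *Itga6*, *Itgb1*, *Amh* and *Foxl2* were named for their roles after values were seen. Alternatives were total count and TMM scaling (edgeR 4.0.16), medians, pooled sums, other pseudocounts, filters and staging, and each oocyte left out. The script was tested on simulated data in Python 3.11.15.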

Additional observations from a re-analysis of the deposited data

Results flagged for a closer look

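*Txndc12* in 1 SN-like *Nlrp5* +/- oocyte, number 55, stood apart from its group. It held 253 normalized counts, and the next of the 6 oocytes held 156, a gap of 0.634 of the group's range against a limit of 0.625 for 6 values. In 20 groups examined in this way, chance alone gives about 1 in 20. Its staging score of −3.93 was near the middle of the gap between the profiles at −3.73, and it held 9275 normalized counts of *Nlrp5*, against a group median of 6226. Whether stage or *Nlrp5* bears on its count was not tested.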

How the results depend on the processing

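No paired analysis was possible because replicate numbers only name oocytes in accession order. The 18 log2 fold changes of the 3 genes moved by less than the spread between oocytes in 215 of 216 other settings and in 190 of 192 fits with 1 oocyte left out. Some settings leave the oocytes of a comparison unchanged and cannot move its value. The spread is wide for *Itgb4*, whose shift from −0.55 to −1.54 below counted as less than it, so these counts do not measure robustness. The sign turned only for *Txndc12* in +/- against +/+, without oocyte 55 in SN-like oocytes and without regard to profile against the NSN-like value. *Txndc12* in +/- against +/+ ran from −0.29 to −0.04 in settings that kept to NSN-like oocytes and from −0.04, without oocyte 55, to 0.25 in SN-like oocytes, and was 0.12 without regard to profile. *Itgb4* in SN-like +/- against +/+ (−0.55) was past 2-fold with medians (−1.54), without oocyte 37 (−1.28) and without regard to profile (−1.01). Also without regard to profile, *Txndc12* in -/- against +/+ was −1.89 in place of −1.42 for SN-like oocytes. With 1 oocyte left out, *Itgb4* ranged from −5.44 to −2.26 in SN-like -/- against +/+ and from −4.90 to −1.71 against +/-, the lowest values being those without oocyte 7, which leaves a single -/- oocyte with no reads. Of the correlations with *Nlrp5* in +/+ oocytes, that of *Txndc12* (0.70) was 0.246 without the 2 farthest oocytes and 0.0742 within SN-like oocytes, where that of *Blzf1* was 0.373 and that of *Itgb4* −0.42. The share of genes at least 2-fold lower in NSN-like -/- than in +/+ oocytes, 3.21%, was 7.53% with no filter and 0.839% with a mean of at least 100, and in SN-like oocytes 5.99% became 11.1% and 2.86%. The alternatives without oocytes 14 and 61, and with oocytes 39 and 61 counted as SN-like, were chosen after seeing the data. With the latter, *Itgb4* in SN-like +/- against +/+ was −0.26. Depth limits *Itgb4* most, with 6 reads in SN-like and 53 in NSN-like -/- oocytes.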
